A study of Mus musculus with 20 samples.

Results

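The 10 immediate early and NR4A genes were followed in bulk RNA sequencing of whole atria from adult female mice heterozygous for a missense change in Tbx5, which encodes a T-box factor needed for atrial identity and conduction, and from control mice. The members are Nr4a1, Nr4a2, Nr4a3, Fos, Fosb, Fosl2, Jun, Junb, Egr1 and Atf3. They were taken by gene symbol from the right atrium table, which holds 33446 genes, and by the same Ensembl identifiers from the left atrium table, which holds 41128 genes, and all 10 were found in both. The mice were 8 to 12 weeks old and fell into 4 groups of 5 libraries, namely right atria of Tbx5G125R/+ mice, right atria of control mice, left atria of Tbx5G125R/+ mice and left atria of control mice. The Tbx5G125R/+ mice, called mutant from here on, are heterozygous for the G125R allele made with CRISPR-Cas9, so they also have a wild-type Tbx5 allele. The labels call the other mice controls, and the column headers of the deposited counts mark them WT, for wild type, and the mutants HET. The labels give neither strain nor litter. According to the study's text the right atrium samples included the sinoatrial node. The labels do not say which left and right libraries share an animal, so each p-value below measures a difference against the spread between the 5 libraries of a group. All atrial cell types contribute to a library, so fewer cells of a type and less RNA per cell cannot be told apart.

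Immediate early genes are switched on within minutes of a signal, without new protein synthesis, and their transcripts are short-lived. FOS and JUN proteins pair through leucine zippers to form the transcription factor AP-1, and ATF3 is a related zipper protein that is induced by stress and often acts as a repressor. EGR1 is a zinc finger factor, and NR4A1, NR4A2 and NR4A3 are orphan nuclear receptors whose activity depends on how much of them is made. In heart muscle these genes are known to respond to adrenergic stimulation, calcium, stretch and injury.

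The members share features of sequence that the choice of genes did not use. Of the 10 members, 9 were matched to RefSeq promoters on GRCm38.p6, all but Egr1. In the 250 bases before the RefSeq start, 7 of these 9 held the core TGACG of the cyclic AMP response element, which CREB binds, on either strand, against 17.8% of 32851 mouse promoters in the same window. More than 1 core was found in 4 of the 9 members, against 3.90% of all promoters. Those 4 are Nr4a1, Nr4a2 and Nr4a3, with 4 cores each, and Fos, with 2. Fosb, Junb and Atf3 had 1 core each, and the windows of Fosl2 and Jun had none. The stretches below are those of the 4 genes with several cores, printed 5′ to 3′ up to the first base of any GENCODE M21 exon, with each core in capitals as TGACG or its reverse complement CGTCA. The Nr4a1 stretch lies in an intron of a longer GENCODE transcript of that gene, and the others lie upstream of their genes. For Nr4a3 the exon begins early, so that 98 bases and 3 of its 4 cores are shown.
Nr4a3, chr4:48045055-48045152, plus strand: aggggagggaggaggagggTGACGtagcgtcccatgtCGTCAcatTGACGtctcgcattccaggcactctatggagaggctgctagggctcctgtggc
Nr4a1, chr15:101266596-101266845, plus strand: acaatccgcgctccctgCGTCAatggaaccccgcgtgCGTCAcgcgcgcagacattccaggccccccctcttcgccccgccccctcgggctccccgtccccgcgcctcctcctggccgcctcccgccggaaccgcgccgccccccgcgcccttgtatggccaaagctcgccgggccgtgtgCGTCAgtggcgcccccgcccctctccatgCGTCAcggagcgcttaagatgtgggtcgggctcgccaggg
Nr4a2, chr2:57124004-57124253, minus strand: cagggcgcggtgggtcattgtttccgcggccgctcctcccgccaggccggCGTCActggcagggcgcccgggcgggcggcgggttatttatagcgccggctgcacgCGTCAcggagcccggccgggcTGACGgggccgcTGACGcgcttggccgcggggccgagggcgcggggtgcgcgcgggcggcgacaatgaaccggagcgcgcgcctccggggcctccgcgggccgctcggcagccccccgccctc
Fos, chr12:85473640-85473889, plus strand: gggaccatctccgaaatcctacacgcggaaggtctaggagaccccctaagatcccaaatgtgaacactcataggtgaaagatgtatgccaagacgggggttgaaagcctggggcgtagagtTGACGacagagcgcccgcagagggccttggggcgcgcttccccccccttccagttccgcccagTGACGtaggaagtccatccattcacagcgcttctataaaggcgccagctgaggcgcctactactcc

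Other motifs were searched on both strands in the 300 bases from 250 before to 50 after the start. The EGR1 motif GCGNGGGCG was present in 4 of 9 members (Nr4a1, Nr4a2, Fosb and Fosl2) and in 5.55% of all promoters. The complete cyclic AMP response element TGACGTCA, the AP-1 site TGANTCA, the NR4A monomer site AAAGGTCA, the T-box site AGGTGTGA and the CArG box bound by serum response factor were found in 0 of 9 members, against 1.79%, 7.81%, 1.51%, 1.28% and 1.63% of all promoters in that order. The core forms part of the complete element, so a match to the complete element would also count as a match to the core. At the low shares above, 0 matches among 9 promoters is a common outcome and shows no lack of a motif. These are matches of letters in a short window, and the TGACG core was chosen for display after its matches had been seen.

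Depth was 17.5 to 26.8 M reads in right atrium libraries and 19.1 to 24.8 M reads in left atrium libraries. All values below are normalized counts, that is, read counts divided by a size factor per library, and the tables of both atria were scaled separately. Bmp10, a right atrial gene, ranged from 25377 to 47759.6 normalized counts in right and from 0.996 to 30.1 in left atrium libraries. Tbx5 itself was at 6153 ± 584 in mutant and 6113 ± 1088 in control right atria, and at 1519.7 ± 189 in mutant and 1459 ± 329 in control left atria (SD, n = 5 each). Neither difference was called (limma adjusted p = 0.937 right and 0.794 left), and gene counts cannot show the base change that defines the allele. Mitochondrial ribosomal RNA took 7.28% to 15.7% of the reads in right and 19.5% to 46.7% in left atrium libraries.

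**Figure D1:**
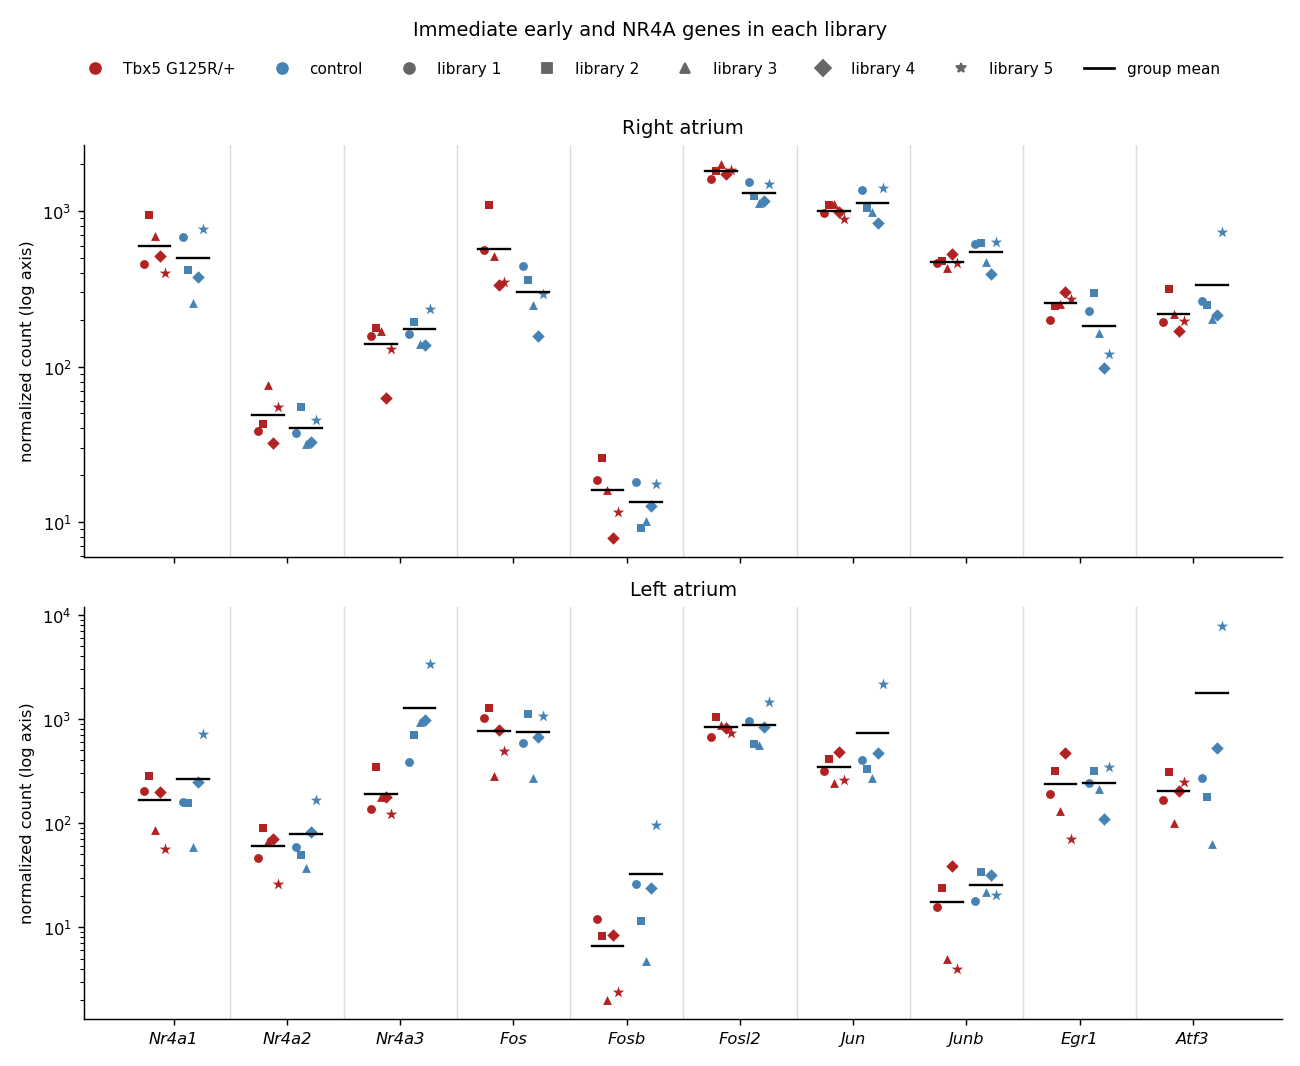
Normalized counts of the 10 genes (log axis) in each library, right atrium above and left atrium below, with mutant libraries in red left of control libraries in blue, marker shapes for libraries 1 to 5 and a black bar at each group mean. In the left atrium the 5 mutant libraries have 123 to 347 normalized counts of Nr4a3, below the controls at 385 to 3353, and control 5 (star) is the highest of the left controls in 8 of the 10 genes.

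Changes were tested with limma on log2(normalized count + 1) over all genes whose normalized counts averaged 10 or more, with Benjamini-Hochberg adjustment and a call at an adjusted p under 0.05. All 10 members passed that filter in both atria. In the right atrium 1 member was higher in mutants (Fosl2) and 0 were lower, where 3.09% of 14288 tested genes were called higher and 3.14% lower, 6.23% in all. In the left atrium 0 members were higher and 1 was lower (Nr4a3), where 0.758% of 13192 tested genes were called higher and 0.44% lower, 1.2% in all. At an unadjusted p under 0.05 there were 3 members in the right atrium, against 21.3% of all genes, and 2 in the left atrium, against 16.6%. The median log2 fold change of the 10 was 0.20 in the right atrium, with 6 above and 4 below 0, and -0.55 in the left atrium, with 1 above and 9 below 0. Over all tested genes the median was -0.01 in each atrium, with 47.4% above 0 in the right and 49.3% in the left. The shift in the left atrium was smaller without left control 5, a library picked after its high values in these genes had been seen. The median was then -0.08, with 4 members above and 6 below 0. Medians without other single libraries are not given beside it.

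**Figure D2:**
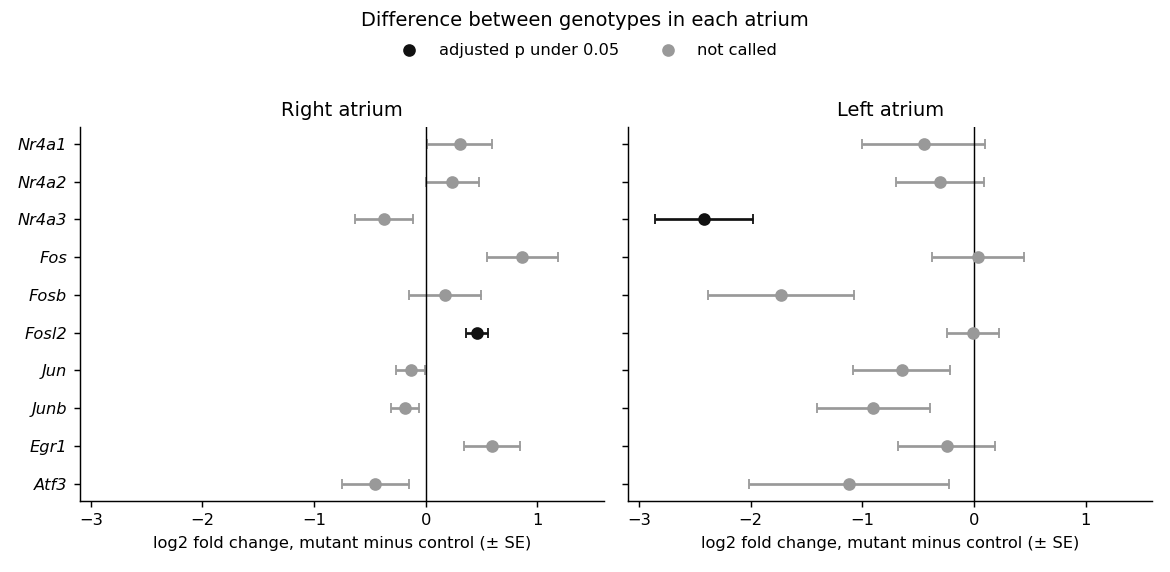
Log2 fold change of each gene, mutant minus control, with its standard error from limma, in the right atrium (left panel) and the left atrium (right panel); black points passed an adjusted p of 0.05 and grey points did not. Fosl2 is the called gene in the right atrium, at 0.46, and Nr4a3 in the left atrium, at -2.42.

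Among the nuclear receptors, Nr4a3 (ENSMUSG00000028341, chr4:48045153-48086447, plus strand, mm10), which encodes NOR-1, was lower in mutant left atria. The normalized counts were 138, 347, 178, 177 and 123 in mutant left atria, against 385, 696, 933, 981 and 3353 in control left atria. All 5 mutant values were thus under the lowest control value, an arrangement shared by 1.46% of the tested left atrium genes, with 3.47% free of overlap in either direction. The means were 193 ± 89.8 in mutants and 1269.6 ± 1188 in controls (SD, n = 5 each), and the fold change was -2.42 ± 0.44 (log2, SE), a 5.34-fold decrease (limma adjusted p = 0.0136). Control 5 carries the upper end of the range, yet without it the decrease was still 3.91-fold (log2 -1.97, adjusted p = 0.00917). With any other library left out the adjusted p stayed between 0.00437 and 0.0411.

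In the right atrium the same gene showed no such separation. Nr4a3 had 157, 177, 169, 62.9 and 129 normalized counts in mutant right atria, against 162, 192, 140.2, 137 and 235 in control right atria, so that mutants 4 and 5 fell below the control range and the others lay inside it. The fold change was -0.37 ± 0.26 (log2, SE; limma adjusted p = 0.428). The left change minus the right change was -2.04 ± 0.57 (log2, SE), with an unadjusted p of 0.00167 and an adjusted p of 0.550 over 12537 genes in limma, so a difference between the atria was not called for Nr4a3. In that test 8 genes, or 0.0638% of those tested, were called, and 0 were members. At an unadjusted p under 0.05 there were 2 members, Nr4a3 and Fosb, against 8.14% of all genes.

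Nr4a1 (Nur77; ENSMUSG00000023034, chr15:101254269-101274795, plus strand), the receptor most often studied in muscle and in T cells, varied widely within each group. Its normalized counts were 457, 940.0, 691, 511 and 399 in mutant right atria, against 680.2, 418, 255, 375 and 774 in control right atria. In left atria they were 205, 281, 85.6, 197 and 56.2 in mutants, against 161, 155, 59.6, 246 and 718 in controls. The groups overlapped in both atria, and the fold changes were 0.30 ± 0.29 right and -0.45 ± 0.55 left (log2, SE; limma adjusted p = 0.587 and 0.647). The left value was 0.02 without control 5.

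Nr4a2 (Nurr1; ENSMUSG00000026826, chr2:57106830-57124003, minus strand), best known from dopamine neurons, was the least abundant of the 3 receptors. It had 38.3, 42.6, 76.1, 32.3 and 54.9 normalized counts in mutant right atria, against 37.2, 54.9, 31.6, 32.7 and 45.2 in control right atria. In left atria it had 46.0, 90.5, 67.7, 69.7 and 26.1 in mutants, against 59.3, 49.0, 36.9, 82.6 and 169 in controls. The fold changes of 0.24 ± 0.24 right and -0.30 ± 0.39 left were not called (log2, SE; limma adjusted p = 0.599 and 0.665), and the left one was 0.02 without control 5.

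Among the FOS genes, Fosl2 (ENSMUSG00000029135, chr5:32135801-32157842, plus strand), which encodes FRA-2, was higher in mutant right atria. The normalized counts were 1607, 1825, 2022, 1736 and 1829.8 in mutant right atria, against 1535, 1254, 1128, 1159 and 1505 in control right atria. All mutant libraries lay above all control libraries, as did those of 3.53% of the tested genes (7.36% were free of overlap in either direction), but the lowest mutant and the highest control were close. The means were 1804 ± 152 in mutants and 1316 ± 192 in controls (SD, n = 5 each), and the fold change was 0.46 ± 0.10 (log2, SE), a 1.38-fold increase (limma adjusted p = 0.0122). The adjusted p was 0.00561 to 0.0376 with single libraries left out. It was 0.414 when all 4 groups shared a single fit, which ended the call.

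In the left atrium Fosl2 had 666, 1054, 883, 812 and 734 normalized counts in mutants, against 961, 578, 562, 836 and 1465 in controls. The mutant libraries lay inside the control range, and the fold change was -0.01 ± 0.24 (log2, SE; limma adjusted p = 0.985). The left change minus the right change was -0.47 ± 0.27 (log2, SE; adjusted p = 0.562).

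Fos (ENSMUSG00000021250, chr12:85473890-85477273, plus strand), the founding member of the family, had the largest positive fold change of the 10 in the right atrium. The normalized counts were 564, 1097, 513, 335 and 350.0 in mutant right atria, against 441, 361, 248, 158 and 294 in control right atria. The 3 highest values were mutant, but mutants 4 and 5 lay within the control range, and the fold change of 0.87 ± 0.32 (log2, SE) was not called (limma adjusted p = 0.140). In left atria Fos had 1016, 1286, 286, 786 and 495 in mutants, against 589.9, 1108, 269, 672 and 1079 in controls, a fold change of 0.04 ± 0.41 (log2, SE; adjusted p = 0.964).

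Fosb (ENSMUSG00000003545, chr7:19302696-19310051, minus strand), known for stable protein forms that build up under repeated stimulation in brain, was the lowest of the 10 per kilobase in every group. It had 18.6, 25.8, 15.9, 7.86 and 11.5 normalized counts in mutant right atria, against 18.1, 9.16, 10.1, 12.6 and 17.5 in control right atria, with a fold change of 0.17 ± 0.32 (log2, SE; limma adjusted p = 0.803). In left atria it had 12.0, 8.22, 1.99, 8.41 and 2.38 in mutants, which is 2 to 17 reads, against 25.8, 11.4, 4.73, 23.6 and 96.1 in controls, which is 5 to 98 reads. Of the left mutants only number 1 exceeded the second lowest control, yet the groups overlapped, and the fold change of -1.73 ± 0.66 (log2, SE) was not called by limma (adjusted p = 0.235). DESeq2 on the reads gave -2.27 (adjusted p = 0.0341). Without control 5 the limma value was -1.18.

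Of the JUN genes, Jun (ENSMUSG00000052684, chr4:95049034-95052222, minus strand) had 975, 1089, 1113, 981 and 886 normalized counts in mutant right atria, against 1360.3, 1048, 984, 833 and 1406 in control right atria. Mutant libraries all lay inside the control range, and the fold change was -0.14 ± 0.13 (log2, SE; limma adjusted p = 0.587). In left atria Jun had 314, 411, 242, 487 and 261 in mutants, against 405, 332, 272, 472 and 2174 in controls, a fold change of -0.65 ± 0.44 (log2, SE; adjusted p = 0.419). It was -0.13 without control 5. Jun overlaps the antisense gene Junos, and as the labels name no strand setting for the counting, reads of this pair cannot be told apart.

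Junb (ENSMUSG00000052837, chr8:84974484-84978718, minus strand), a JUN family member that often restrains JUN, had 465, 478, 434, 527 and 464 normalized counts in mutant right atria, against 611, 626, 469.8, 392 and 629.9 in control right atria. Control libraries spread around the narrow mutant group, and the fold change was -0.18 ± 0.13 (log2, SE; limma adjusted p = 0.434). In left atria Junb had 15.6, 23.8, 4.98, 38.5 and 3.96 in mutants, against 18.1, 34.2, 21.8, 32.0 and 20.6 in controls, a fold change of -0.90 ± 0.51 (log2, SE; adjusted p = 0.356). Mutants 3 and 5 were at 5 reads each. The transcript of Junb has 62.6% GC, the log2 ratio of its mean in the left table to that in the right table was -4.52, and the 349 genes over 60% GC had a median of -3.83, against -0.78 over all 12494 genes in both tables (Spearman rho of GC content with the log2 ratio -0.856 across genes, a description). The tables were scaled separately, so no level is compared between atria here. Junb also overlaps Prdx2 on the opposite strand.

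Egr1 (ENSMUSG00000038418, chr18:34859823-34864984, plus strand) had 199.9, 246, 253, 302 and 272 normalized counts in mutant right atria, against 227, 296, 165, 98.0 and 119.9 in control right atria. Controls 3, 4 and 5 lay below every mutant library, whereas controls 1 and 2 lay within the mutant range. The fold change of 0.59 ± 0.25 (log2, SE) was not called (limma adjusted p = 0.199). In left atria Egr1 had 191, 319, 130.4, 469 and 69.7 in mutants, against 241, 317, 212, 109.5 and 346 in controls, a fold change of -0.25 ± 0.44 (log2, SE; adjusted p = 0.758).

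Atf3 (ENSMUSG00000026628, chr1:191170296-191218039, minus strand) held the most extreme values of the 10. It had 193, 317, 217, 170.4 and 196 normalized counts in mutant right atria, against 265, 249, 203, 215 and 738 in control right atria. In left atria it had 166, 308, 101, 204 and 249 in mutants, against 272, 179, 63.4, 524 and 7859 in controls. Control 5 was far above the rest of its group in both atria. The fold changes were -0.45 ± 0.30 right and -1.12 ± 0.90 left (log2, SE; limma adjusted p = 0.414 and 0.485), and without control 5 they were -0.12 right and -0.06 left. The left value was -3.06 in edgeR (adjusted p = 0.179). Atf3 overlaps the small RNA gene Gm24748 on the opposite strand.

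Levels between genes were compared per kilobase of exon, without correction for GC content, which ran from 47.9% (Nr4a2) to 62.6% (Junb) among the members. In right atria Jun was highest, at 316 normalized counts per kilobase in mutants and 353 in controls. At the low end came Nr4a3 (23.2 and 28.9), Nr4a2 (12.0 and 9.93) and Fosb (2.55 and 2.16), in the same order in both genotypes. Of the 9 neighbouring pairs in each right atrium order, 6 had overlapping ranges over libraries in mutants and 6 in controls. In left atria all 9 neighbouring pairs overlapped in mutants and all 9 in controls. Nr4a3 stood at rank 7 with 32.2 normalized counts per kilobase in left mutants (range 20.5 to 58.0) and at rank 4 with 212 in left controls (range 64.3 to 560.1). Atf3 stood at rank 3 with 95.5 in left mutants and at rank 1 with 826 in left controls, where the range of 29.4 to 3648 shows how far 1 library set the mean.

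The members varied more between libraries of a group than most genes. The SD within groups of log2(normalized count + 1) had a median of 0.486 over the 10 members in the right atrium, against 0.175 over all tested genes, and of 0.900 in the left atrium, against 0.368. It lay above the 90th percentile of all tested genes for 6 of 10 members in the right and for 9 of 10 in the left atrium. Fosl2 was the steadiest, at percentile 48.4 in the right and 65.1 in the left atrium. Atf3 was the most variable left atrium member, at percentile 99.9 with an SD of 1.89, and Fos the most variable in the right, at percentile 96.0 with an SD of 0.629. Set against only the 500 genes of nearest level, 6 members in the right and 9 in the left atrium were above the 90th percentile, with Jun in place of Fosb in the right (Fosb at percentile 54.1 and Jun at 91.0 on this measure). Without control 5 the left SD of Atf3 was 0.952 and that of Jun 0.394, whereas that of Fos was 0.856 and that of Egr1 0.913. It was 0.920 for Nr4a1, 0.603 for Nr4a2, 0.596 for Nr4a3, 0.993 for Fosb, 0.317 for Fosl2 and 1.02 for Junb. The percentiles above include control 5, and none is given without it.

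**Figure D3:**
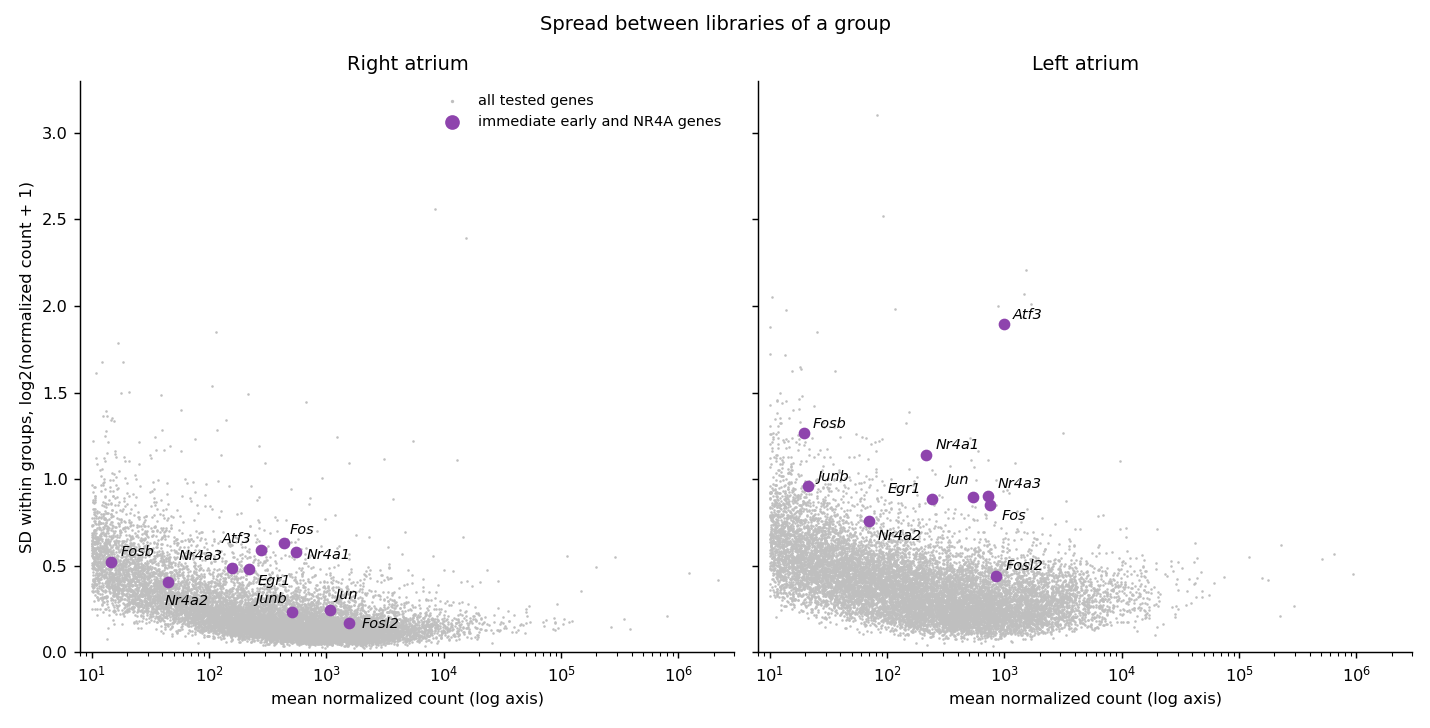
SD within groups of log2(normalized count + 1) against the mean normalized count (log axis) for all tested genes in grey and for the 10 members in purple, right atrium in the left panel and left atrium in the right panel. In the left atrium 9 of the 10 members lie above the 90th percentile of the SD, with Atf3 highest at 1.89 and Fosl2 lowest at 0.442.

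Members tended to be high or low together in the same libraries. After each value was set against its group mean, 42 of the 45 pairs of members had a positive Pearson correlation over the 10 right atrium libraries, with a median of 0.48, and 20 were above 0.5. In the left atrium 44 of 45 were positive, with a median of 0.63, and 29 were above 0.5. Left control 5 contributed to this but did not make all of it, since without it 43 of 45 were positive, with a median of 0.51. For Nr4a3, the called member, the left value fell without it from 0.71 to 0.04 with Atf3 and from 0.78 to 0.23 with Jun. It fell from 0.63 to 0.11 with Fosl2 and from 0.50 to -0.08 with Fosb, and rose from 0.20 to 0.46 with Junb. The closest pairs were Nr4a1 with Fosb (0.94) and Jun with Atf3 (0.94) in the left atrium, of which 0.90 and 0.71 remained without control 5, and Fosl2 with Jun (0.84) and Nr4a1 with Jun (0.82) in the right atrium. In the right atrium Egr1 had negative values with Fosb (-0.36), Atf3 (-0.27) and Nr4a3 (-0.13) and a positive one with Junb (0.62), and without right control 5 these 4 values were -0.27, 0.20, 0.02 and 0.92. These correlations describe the libraries, which the genes of a pair share, and carry no test. Values for pairs of other genes are not given beside them.

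The mean deviation of the 10 members gave a score for each library. In the left atrium it was 0.12, 0.70, -0.58, 0.50 and -0.73 in mutants 1 to 5, against -0.27, -0.27, -1.03, 0.04 and 1.53 in controls 1 to 5. Left control 5 thus had the highest and left control 3 the lowest score, with control 3 lowest of its group in 7 of the 10 genes. Each score is set against the mean of the library's own group, which control 5 raised in left controls. The scores therefore do not rank libraries across genotypes. Left mutant 2 lay above its group mean in all 10 genes. In the right atrium the score was -0.06, 0.36, 0.16, -0.32 and -0.14 in mutants, against 0.25, 0.11, -0.31, -0.40 and 0.35 in controls, a narrower range. Left control 5 had the most reads of the left atrium libraries, 24.8 M, and 34.0% mitochondrial ribosomal RNA.

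**Figure D4:**
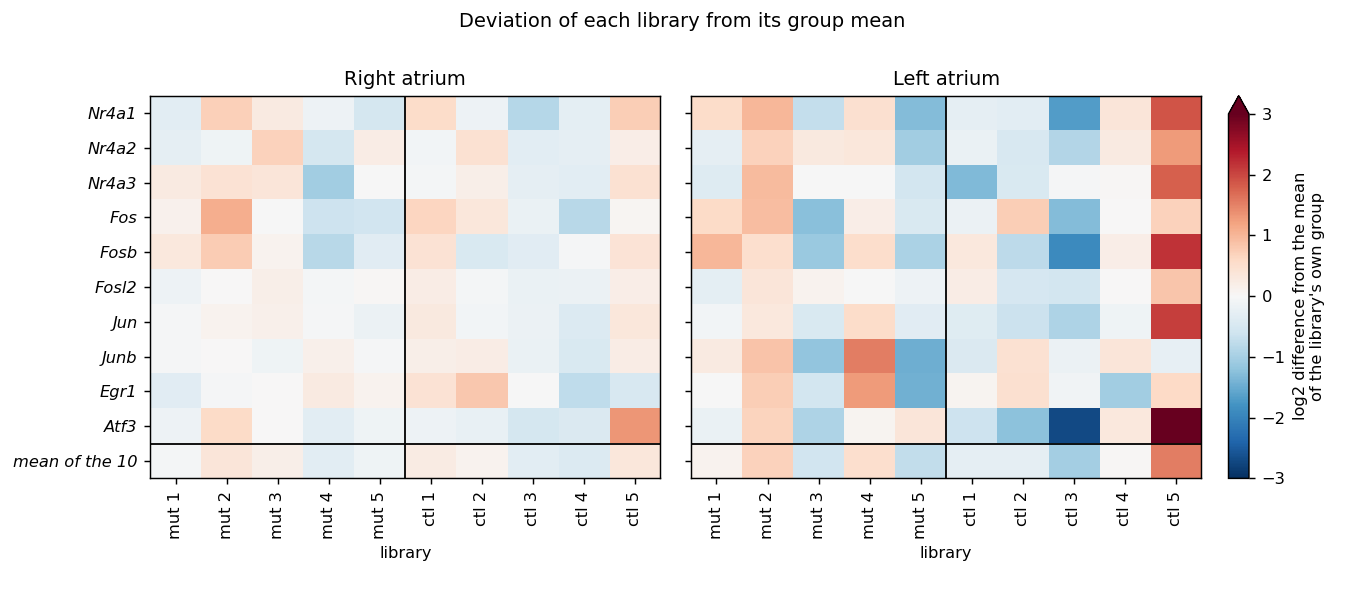
Difference of log2(normalized count + 1) from the mean of the library's own group for each member and, in the bottom row, their mean, with mutants 1 to 5 left of controls 1 to 5 in each panel; red is above and blue below the group mean, and the colours end at 3 log2 units. Left control 5 is red in 9 of 10 members with a mean of 1.53, and left control 3 is blue in all 10 with a mean of -1.03.

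Other genes followed the same score. Among 8754 genes whose mean reached 50 normalized counts in both tables, the 5 outside the members with the highest Pearson correlation over the 20 libraries were Btg2 (0.90), an antiproliferative immediate early gene, Cyr61 (0.86), a matricellular growth response gene, Otud1 (0.85), a deubiquitinase, Mat2a (0.85), which makes S-adenosylmethionine, and Hspa1b (0.84), the inducible heat shock protein 70. Without left control 5 the correlations were 0.82, 0.74, 0.73, 0.76 and 0.70 in the same order. The group means behind these values still included that library, unlike those for the pairs of members, so its influence remains. In that library Hspa1b was at 10884 normalized counts, against 223 to 1173 in left mutants and 116 to 467 in the other left controls. Otud1 was at 18046 there, against 780.0 to 1886 in left mutants and 971 to 3573 in the other left controls. Of the 5, Mat2a was called between genotypes, higher in mutant right atria (log2 0.40, limma adjusted p = 0.00544), and none was called in the left atrium.

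The mean deviation of 11 heat shock genes had a Pearson correlation of 0.91 with the member score over the 10 right atrium libraries and of 0.79 over the 10 left ones, and without left control 5 the left value was 0.41. For 15 clock genes it was 0.08 right and -0.33 left. Among the marker lists it lay farthest from 0 for smooth muscle (-0.62 right and -0.49 left), macrophages (-0.52 right) and neural cells (0.55 left, from 3 genes). Between genotypes 1 of the 11 heat shock genes was called in the right atrium, Hspb1, which encodes a small heat shock protein and was lower in mutants at 803 ± 84.4, against 1318 ± 299.8 in controls (SD, n = 5 each; log2 -0.69 ± 0.14 SE, limma adjusted p = 0.0114, and 0.516 with all 4 groups in 1 fit), and 0 of 11 in the left atrium, where 2 had an unadjusted p under 0.05. Of the clock genes 0 of 15 were called in either atrium, where 6.23% of all tested right and 1.2% of all tested left genes were called. In each atrium 2 of them had an unadjusted p under 0.05, against 21.3% of all right and 16.6% of all left genes. The part of this shared variation in the genotype differences was not tested.

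Genes that work beside the members were read from lists. Over all tested genes 6.23% in the right and 1.2% in the left atrium were called. An unadjusted p under 0.05 was found for 21.3% and 16.6% in that order. Of the other AP-1 and ATF genes, 0 of 7 tested were higher and 1 was lower in mutant right atria, and 0 of 4 were called in left atria. The gene was Atf5, a stress response factor, at 631 ± 60.3 in mutants, against 848 ± 133 in controls (SD, n = 5 each; log2 -0.42 ± 0.10 SE, limma adjusted p = 0.0324). That call was lost without any of 5 single libraries, right mutants 2, 3 and 4 and right controls 2 and 4, with adjusted p up to 0.0851, and with all 4 groups in 1 fit (adjusted p = 0.445). Other immediate early transcription factors gave 0 calls among 15 tested in either atrium, and 3 in each had an unadjusted p under 0.05. Their left fold changes were below 0 in 13 of 15, with a median of -0.36, and the most abundant, Klf6, was at 2894 ± 813 in left mutants, against 4072 ± 1548 in left controls (SD, n = 5 each; log2 -0.47 ± 0.25 SE, limma adjusted p = 0.334). Control 5 stood high here too, with 6667 normalized counts of Klf6, against 2804 to 4249 in the other left controls. Without it 11 of the 15 were below 0, with a median of -0.27.

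Immediate early genes with other products than transcription factors gave calls in both atria. Of 26 tested in the right atrium 2 were higher and 1 lower, where 6.23% of all tested genes were called. Of 24 tested in the left atrium 2 were higher and 0 lower, where 1.2% of all tested genes were called. Dusp4, a nuclear phosphatase that switches off MAP kinases, was at 191 ± 27.3 in mutant and 103 ± 19.1 in control right atria, and at 196 ± 39.9 in mutant and 103 ± 15.6 in control left atria (SD, n = 5 each). Its fold changes were 0.90 ± 0.14 right and 0.91 ± 0.19 left (log2, SE; limma adjusted p = 0.00163 and 0.0263), and all mutant libraries lay above all control libraries in both atria, as for 3.53% of right and 2.02% of left genes. The left call was lost in 5 of the 10 fits that left out a library (mutants 2, 3 and 5, controls 2 and 3, adjusted p up to 0.0915) and after removal of GC trends (log2 0.62, adjusted p = 0.199).

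Rgs2, a brake on Gq signalling, was at 4208 ± 899.8 in mutant and 2970.1 ± 102 in control right atria, and at 4903 ± 1057 in mutant and 2696 ± 365 in control left atria (SD, n = 5 each). The fold changes were 0.47 ± 0.13 right and 0.84 ± 0.18 left (log2, SE; limma adjusted p = 0.0412 and 0.0333). In each atrium the call was kept only in the fit without mutant 4, and the adjusted p in the other 9 fits that left out a library reached 0.106 right and 0.102 left. With all 4 groups in 1 fit the right value had an adjusted p of 0.180. Zfp36l2, which speeds the decay of mRNAs with AU-rich elements, was lower in mutant right atria at 389 ± 27.1, against 507 ± 59.1 in controls (SD, n = 5 each; log2 -0.38 ± 0.09 SE, adjusted p = 0.0251), with all mutant libraries below all control libraries, as for 3.83% of genes. That call was lost without any of right mutants 2, 3 and 4 or right controls 2 and 3 (adjusted p up to 0.0687), and with all 4 groups in 1 fit (adjusted p = 0.313).

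Upstream of the members, 1 of 20 tested kinases and signal-dependent factors was lower in mutants in both atria, and 0 were higher. Over all tested genes 6.23% in the right and 1.2% in the left atrium were called. The lower gene was Mapk10, which encodes the JUN kinase JNK3. It was at 177 ± 25.2 in mutant and 504 ± 70.9 in control right atria, and at 825 ± 97.2 in mutant and 1393 ± 185 in control left atria (SD, n = 5 each). The fold changes were -1.50 ± 0.12 right and -0.75 ± 0.14 left (log2, SE; limma adjusted p = 4.24e-06 and 0.0143), and the left call was lost without left control 3 (adjusted p = 0.0523). Of 6 genes for NR4A partners and corepressors, Rxrg, a retinoid X receptor, was lower in mutant right atria at 391 ± 45.5, against 594 ± 124 in controls (SD, n = 5 each; log2 -0.59 ± 0.13 SE, adjusted p = 0.0200), a call lost without right mutant 3 (adjusted p = 0.0572) and with all 4 groups in 1 fit (adjusted p = 0.329). In left atria 0 of these 6 were called, and 1 had an unadjusted p under 0.05.

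Markers of the cell types in the tissue were read beside these results, where 6.23% of all tested right and 1.2% of all tested left genes were called. The summed level of each of 11 marker lists overlapped between genotypes in the left atrium, and that of 10 of 11 in the right atrium. Such overlap is the usual outcome, since 3.47% of single genes in the left and 7.36% in the right atrium were free of it. A sum also follows its most abundant genes, so overlap cannot show whether the mixture of cell types was the same. The exception was the lymphocyte list, at 138 to 186 normalized counts in mutant and 40.4 to 64.8 in control right atria. Of its 6 genes only the T cell receptor gene Trac was tested there, and it was called higher. In the right atrium the endothelial gene Kdr was called higher, as 1 of 8 tested, while 5 of the 8 had fold changes below 0 (median -0.06). The smooth muscle genes Acta2 and Cnn1 were called lower, as 2 of 6 tested, of which 5 had fold changes below 0. Several lists leaned to 1 side without a call in either atrium. Fold changes were below 0 for 8 of 8 fibroblast markers (medians -0.26 right and -0.25 left), 5 of 5 mesothelial markers (-0.61 and -0.69) and 4 of 4 adipocyte markers (-0.87 and -0.86) in both atria. They were below 0 for 6 of 7 macrophage markers in right atria (median -0.36), of which 5 had an unadjusted p under 0.05. They were above 0 for 8 of 8 cardiomyocyte markers in left atria (median 0.36), and for 7 of 8 without left control 5. Trac was also called higher in mutant left atria, where the other of the 2 lymphocyte genes tested had a fold change below 0. The part of these differences in the values of the 10 members was not tested.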

How the data were processed

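RNA of whole right and left atria was made into libraries with the TruSeq RNA kit v2, and the submitters' processing notes name STAR, DESeq2 and the mouse build mm10 without versions. The authors deposited 1 table of normalized signal per atrium, with read counts per gene divided by a DESeq2 size factor per library. Whole reads were recovered from the steps of the values, with every nonzero value within 0.01 reads of a whole number, although in left mutant 3 the step of 0.996 is too close to 1 for a strong check. The right atrium table had 40924 entries, of which 6275 had no values and 1203 were repeats. Columns with the authors' own comparisons hold fold changes and p-values and were not used.

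Each atrium was fitted on its own with limma 3.58.1 in R 4.3.3, on log2(normalized count + 1) of genes with a mean of at least 10, with eBayes (trend) and p-values adjusted by Benjamini-Hochberg over all tested genes. Fold changes on this scale understate those of low genes. The difference between atria was fitted over all 20 libraries. Scripts were tested on simulated data. Alternatives were other pseudocounts, filters and scalings, DESeq2 1.42.0 and edgeR 4.0.16 on the recovered reads, a replicate block, a fit of all 4 groups, and fits without single libraries. Removal of GC trends and fits without chosen pairs of libraries or without left control 5 were added after seeing the data. The members and the lists were chosen with earlier results of these data known. Named were all 10 members, Tbx5, from each other list up to 4 called genes of lowest p or, with none called, up to 3 of highest mean, and the 5 genes most like the member score. Marker genes named beside them were those called. Positions are from GENCODE M21 on GRCm38 (mm10), and promoters from RefSeq on GRCm38.p6. Another gene used to check the labelled atrium is not reported here.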

Additional observations from a re-analysis of the deposited data

Results flagged for a closer look

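In 7 of the 44 groups of 5 libraries examined, 1 library stood apart from the other 4 in normalized counts by Dixon's criterion (gap over range above 0.71). The rate of about 1 in 20 that chance gives holds for independent groups of normally distributed values, and these groups share libraries. In left controls it was control 5 each time, as the highest. It had 718 normalized counts of Nr4a1 (next highest 246), 3353 of Nr4a3 (next 981), 96.1 of Fosb (next 25.8), 2174 of Jun (next 472) and 7859 of Atf3 (next 524). In right controls Atf3 was at 738 in control 5, with the next at 265. In left mutants Nr4a3 was at 347 in mutant 2, with the next at 178. On the log2 scale of the tests only 2 of the 7 passed, Jun in left control 5 (gap over range 0.736) and Atf3 in right control 5 (0.795), and the others lay between 0.432 and 0.642.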

How the results depend on the processing

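The Nr4a3 decrease in left atria was called in all 10 fits that left out a library (log2 -2.75 to -1.97) and under all 14 other alternatives (adjusted p 0.000352 to 0.0230). The Fosl2 increase in right atria was called in all 10 and under 14 of 15 alternatives. With all 4 groups in 1 fit, 0 members were called higher in right atria, genes called higher or lower in right atria numbered 165 and 102 (442 and 448 in the report), and those in left atria 721 and 514 (100 and 58). DESeq2 called 259 left genes higher and 172 lower, with 2 members lower, Nr4a3 and Fosb. Replicate numbers did not establish a pairing, since not every pair of the same number correlated above 0.1 (right -0.03 to 0.27, left 0.03 to 0.32, with 3 of 5 in each atrium closest to their own number). Between right and left libraries of the same number all 5 control pairs were above 0.1 (0.27 to 0.40). Of the 5 mutant pairs 4 were above 0.1 (-0.07 to 0.20 over all 5). Among left libraries of the same genotype, each right library except mutant 1 and control 5 was closest to its own number. The main fit of the difference between atria took all libraries as independent. These values cannot tell whether such libraries share an animal or something else, and the labels do not say. With a replicate block 285 left genes were higher and 408 lower, 2 right members were higher (Fosl2 and Fos, with Fos at adjusted p = 0.0262), and the difference between atria, blocked by genotype and number, had 1 gene higher and 1 lower (3 and 5 without the block), with Nr4a3 at -2.04 (adjusted p = 0.232). With the block and GC trends removed the left counts were 221 and 234, and 2 right members were higher. That fit ended the right call of Zfp36l2 (adjusted p = 0.0579), and without right mutant 2 and right control 5 together those of Atf5 (0.0930) and Rgs2 (0.107) ended. The difference had 1 gene higher and 2 lower without both controls numbered 5, and 2 lower after quantile normalization. Leaving out single libraries gave 48 to 196 left genes higher, 23 to 174 lower, 309 to 519 right genes higher, 279 to 572 lower, and for the difference 0 to 5 higher and 0 to 6 lower. The fewest left calls came without control 2 and the most without mutant 4, and without control 5 there were 36 lower.

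Only changes that were not called turned direction. In left atria Fos was -0.12 after removal of GC trends, with or without the block, and -0.00102 with upper quartile scaling, Fosl2 was 0.083 with quantile normalization and 0.011 with TMM, and Tbx5 was -0.049 without GC trends, with or without the block. The difference for Atf3 was 0.056 without both controls numbered 5. Without single libraries the left values ranged from -0.57 to 0.12 for Egr1, -0.29 to 0.35 for Fos, -0.15 to 0.20 for Fosl2, -0.87 to 0.024 for Nr4a1, -0.52 to 0.019 for Nr4a2 and -0.053 to 0.17 for Tbx5. The right values ranged from -0.019 to 0.38 for Fosb and -0.040 to 0.094 for Tbx5, and the difference from -1.34 to 0.39 for Atf3 and -0.74 to 0.0039 for Jun. The cause was not tested in any of these cases. Low read counts limit what can be said of Fosb and Junb in left atria, where mutant libraries held as few as 2 and 5 reads.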
